A study of Mus musculus with 4 samples.

Results

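The 10 genes described here are core genes of thermogenic fat, chosen by gene symbol: Ucp1, Dio2, Otop1, Ppargc1a, Prdm16, Cox7a1, Cox8b, Zic1, Letmd1 and Kcnk3. All 10 were found on the array, by 13 probes of 60 bases printed once each, among 22326 named genes. Expression was measured on 4 one-colour Agilent arrays, 1 for each combination of tissue (liver, white adipose tissue or WAT) and genotype (Pnpla7+/+, called wild type, or Pnpla7-/-). All mice were C57BL/6N and 4 weeks old. The RNA on an array came from 5 animals in equal parts, so a group had 1 array, no replicate and no statistical test. The labels do not say from which depot the fat was taken or which sex the mice were, and the extraction protocol names livers only. PNPLA7 is a lysophospholipase, and the series as a whole, by its title, asks how liver gains choline by breaking down phosphatidylcholine.

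Brown and beige adipocytes burn fuel to make heat. Their mitochondria carry UCP1, which lets protons return to the matrix without making ATP, and its gene is switched on by noradrenaline through cAMP and by the coactivator PGC-1alpha. Brown adipocytes lie in depots of their own and arise from muscle-like precursors, while beige adipocytes appear within white fat. Zic1 is known as a marker of brown rather than beige adipocytes, whereas Ucp1, Cox8b, Dio2 and Ppargc1a are used by both.

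Levels are given as multiples of the array's 75th percentile of the processed signal, or as log2 of that multiple. Ratios are those of the array labelled knockout over its wild-type counterpart in that tissue. The only probe of Pnpla7 itself read 9.04 in wild-type liver, 7.98 in labelled-knockout liver, 0.739 in wild-type WAT and 0.372 in labelled-knockout WAT. Which exons the knockout lacks is not stated, so this probe does not check the labels, and directions rest on them. Between 65.5% and 72.6% of spots were well above background, and 0 spots were saturated. The 4 arrays shared 1 slide and 1 scan time. Precision is limited by the number of arrays. The scanner's error model gave a median error of 0.20 for a log2 ratio. Where a probe was spotted repeatedly the median SD was 0.05, and the pooled SD between different probes for the same gene was 0.23 in WAT and 0.20 in liver. None of these errors covers the variation between animals. As a check of the tissue labels, the fibrinogen gene Fgg had log2 levels of 7.66 and 7.40 in liver against 0.39 and -1.24 in WAT. The adipocyte gene Adipoq was at 6.98 and 7.02 in WAT and not well above background on either liver array. All 25 general adipocyte markers were well above background on both WAT arrays. Of these, 21 were also well above background on both liver arrays, so their detection does not check the labels.

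In WAT all 10 core genes had a probe well above background on both arrays, and 7 of them were at least 2-fold higher in the labelled knockout, while 0 were lower by that much. The 7 were Ucp1, Dio2, Otop1, Cox7a1, Cox8b, Ppargc1a and Kcnk3. Letmd1 was 1.71-fold higher, and Zic1 and Prdm16 had log2 ratios of 0.26 and 0.14. The median log2 ratio of the 10 genes was 1.41, or 2.65-fold. For comparison, 16130 genes were measured in WAT, of which 2.16% passed 2-fold upward and 2.01% downward, around a median of 0.02. In bulk tissue, more thermogenic cells and more RNA per cell cannot be told apart.

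**Figure D1:**
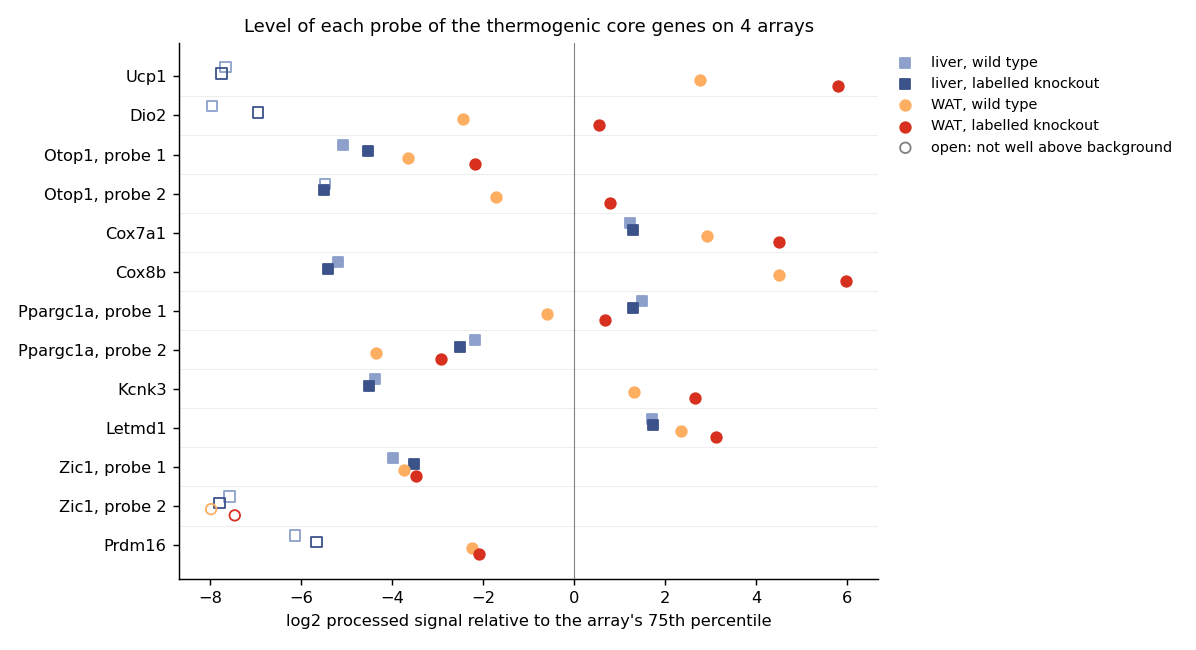
Log2 level of each of the 13 probes of the 10 core genes on the 4 arrays, relative to the 75th percentile of the array, 1 point per array; open symbols mark probes not well above background. The labelled-knockout WAT point lies to the right of the wild-type WAT point for Ucp1 (5.80 against 2.76) and overlaps it nearly for Prdm16 (-2.09 against -2.24).

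Ucp1 encodes the uncoupling protein itself. Its probe, shown because Ucp1 had the largest ratio of the 10 genes, lies on chr8:85821788-85821847 of mm9 on the plus strand, from base 1076 of the transcript, in the part that codes for the end of the protein:
Ucp1 probe: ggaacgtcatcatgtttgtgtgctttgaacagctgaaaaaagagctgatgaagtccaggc
Ucp1 read 6.79 in wild-type WAT and 55.7 in labelled-knockout WAT, an 8.20-fold difference (log2 ratio 3.04, model error 0.20). It read 0.00496 and 0.00468 in wild-type and labelled-knockout liver, in neither case well above background. Wild-type WAT thus already held Ucp1 transcript, at least 392-fold above wild-type liver, and labelled-knockout WAT at least 3729-fold above its liver. The log2 ratio of Ucp1 in WAT was higher than that of 99.8% of the genes measured.

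Dio2, the deiodinase that turns thyroxine into active thyroid hormone inside the cell, differed about as much. It read 0.185 in wild-type WAT and 1.45 in labelled-knockout WAT, a 7.87-fold difference (log2 ratio 2.98, model error 0.21). In liver it read 0.00404 and 0.00812, not well above background on either array. Its level in WAT was at least 10.7-fold above liver in wild type and at least 97.2-fold in the labelled knockout. Of 9 measured targets and carriers of thyroid hormone, 8 had a ratio above 0, against 52.8% of all genes: Gpd2 (1.22), the mitochondrial glycerol phosphate dehydrogenase, was past 2-fold upward and Hr (-1.55) downward, with a median of 0.23. Me1 was at 0.78 and Dbp at 0.65. Thrsp (0.225), Klf9 (0.179), Atp2a2 (0.129) and Slc16a10 (0.0016) were above 0 by less than the pooled SD of 0.232 between probes. General adipocyte genes had a ratio above 0 in 22 of 25 cases.

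Otop1, a proton channel abundant in brown fat, had a pair of probes that disagreed on the size. The first, from base 1719 of the transcript, read 0.0795 in wild-type and 0.222 in labelled-knockout WAT, 2.79-fold. The second, from base 3073, read 0.304 and 1.73, or 5.70-fold. Both were higher in the labelled knockout, at log2 ratios of 1.48 and 2.51, a gap larger than the pooled SD of 0.23 between probes. In liver the first probe read 0.0296 and 0.0437, dim but well above background, and the second 0.0226 and 0.0223, well above background on the labelled-knockout array only.

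Kcnk3 encodes a potassium leak channel that sets the membrane potential of thermogenic adipocytes and is also known from heart and adrenal. It read 2.49 in wild-type and 6.26 in labelled-knockout WAT, 2.51-fold (log2 ratio 1.33, model error 0.20), against 0.0483 and 0.0441 in liver. The fat arrays were thus both far above the liver arrays, 51.6-fold in wild type, although the liver level was dim. Of its 5 measured relatives, Kcnk1 (1.90, from a dim wild-type log2 level of -5.50) was at least 2-fold higher. Kcnk9 was at 0.41, Kcnk6 at -0.63, Kcnk2 at -0.67 and Kcnk5 at -0.76.

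Letmd1 encodes a mitochondrial protein needed for brown fat function. It read 5.07 in wild-type and 8.67 in labelled-knockout WAT, 1.71-fold on a model error of 0.20 for the log2 ratio of 0.77. Its liver arrays read 3.26 and 3.34. In wild type its WAT level was 1.56-fold above liver, within the 2-fold limit like that of Zic1. Its relatives Letm1 and Letm2 had log2 ratios of 0.38 and 0.17 in WAT.

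**Figure D2:**
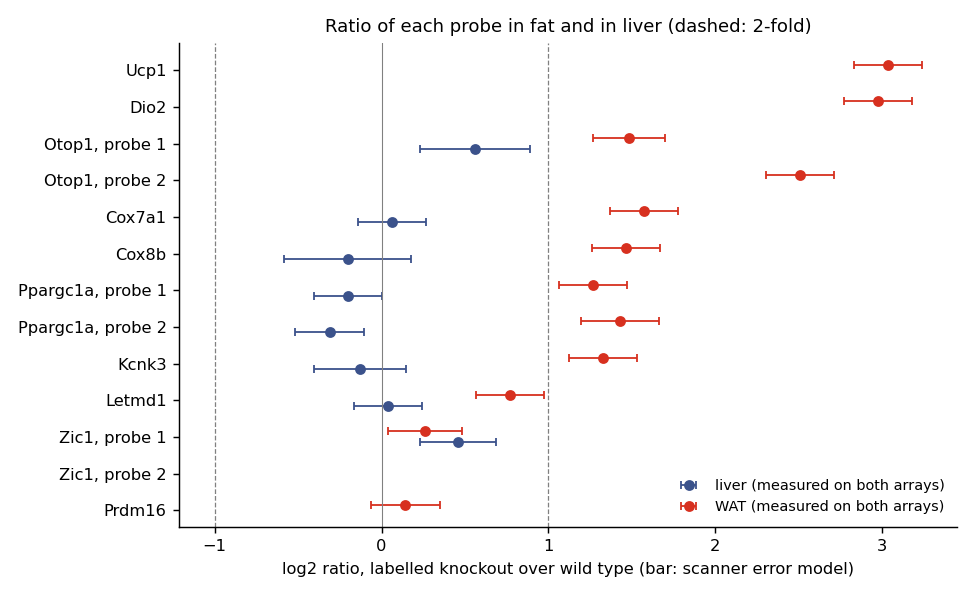
Log2 ratio of labelled knockout over wild type for each probe in WAT and in liver, with bars from the scanner's error model; probes not well above background on both arrays of a tissue have no point. The WAT points of 7 genes lie beyond the dashed 2-fold line, while the liver points of 7 genes stay within it.

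Cox7a1 and Cox8b encode the tissue-specific forms of 2 subunits of cytochrome c oxidase, the last complex of the respiratory chain, used in brown fat, heart and skeletal muscle. The Cox7a1 probe is shown because it spans an intron: its 60 bases cover 612 bases of the genome, chr7:30970337-30970948 of mm9, so it reads spliced transcript:
Cox7a1 probe: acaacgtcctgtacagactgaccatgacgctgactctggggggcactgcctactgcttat
Cox7a1 read 7.58 in wild-type and 22.6 in labelled-knockout WAT, 2.98-fold (log2 ratio 1.57, model error 0.20), and 2.34 and 2.44 in liver. Cox8b read 22.8 and 63.0 in WAT, 2.77-fold (log2 ratio 1.47), and 0.0273 and 0.0237 in liver. In both cases the fat arrays were apart. The liver arrays were nearly level for Cox7a1, while the dim liver ratio of Cox8b was -0.20 and moved to -0.91 and -1.31 with normexp background correction, with an offset of 50 and without offset.

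The forms of these subunits that most tissues use differed less in the same pools. In WAT the log2 ratio was 0.39 for Cox7a2 against 1.57 for Cox7a1, and 0.42 for Cox8a against 1.47 for Cox8b. A further pair of this kind, Cox6a1 and the muscle and brown fat form Cox6a2, was at 0.35 and 3.71. Of 21 measured genes of cytochrome c oxidase and its assembly other than the core genes, Cox6a2 alone was past 2-fold, upward, and the median was 0.38. Its liver ratio was 1.23, from a dim level. Cox5a (0.54), Cox7b (0.53) and Cox5b (0.50) came next. Among 37 measured subunit genes of the other complexes and cytochrome c, 0 reached 2-fold, the median was 0.47, and 37 had a ratio above 0, against 52.8% of all genes. Uqcrc2 was at 0.68 and Atp5j at 0.72, the latter with probes at 0.17 and 1.26. In liver 0 of these 37 genes had a ratio above 0, against 44.2% of all genes, and their median was -0.20.

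**Figure D3:**
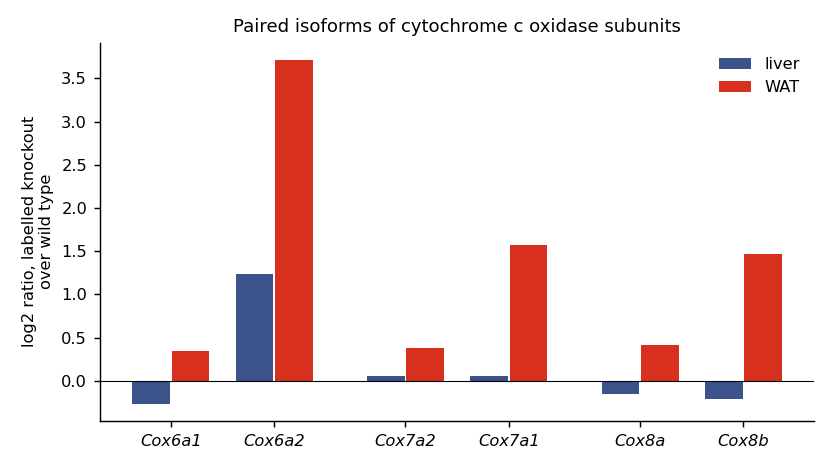
Log2 ratio of labelled knockout over wild type in liver and WAT for 3 pairs of cytochrome c oxidase isoforms, the widely used form first in each pair; bars start at 0 and carry no error bar. In WAT the second form has the taller bar in each pair (3.71 against 0.35, 1.57 against 0.39 and 1.47 against 0.42).

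Skeletal muscle genes were higher on the same labelled-knockout WAT array, which bears on every core gene that muscle also uses, among them Cox7a1, Cox8b and Ppargc1a. Of 26 fibre markers, 23 were measured and 21 of those were at least 2-fold higher, against 2.16% of all genes. The median log2 ratio of the 23 markers was 3.13. Their summed level went from 7.08 to 74.2. Casq1 and Myot were well above background in the labelled knockout alone, at least 17.6-fold and 19.2-fold higher, and Tnni1 was not well above background on either array. Myh4 (4.73), the fast myosin heavy chain, and Ckm (4.66), muscle creatine kinase, were among the leading genes. The part of muscle RNA in the ratios of the core genes was not tested. Of the heart list, Actc1 (6.64), Myl2 (1.72) and Myl3 (1.37) were at least 2-fold higher, while the atrial peptide Nppa was at 0.31 and the heart myosin Myh6 at 0.01.

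Ppargc1a and Prdm16 are the regulators among the core genes. Ppargc1a encodes the coactivator PGC-1alpha, which drives mitochondrial genes in fat, muscle and liver. Its first probe read 0.666 in wild-type and 1.60 in labelled-knockout WAT (log2 ratio 1.27, model error 0.20), and its second read 0.0493 and 0.133 (1.43, model error 0.23). Both probes gave a ratio above 2-fold, and their mean was 2.55-fold. In liver the first probe read 2.81 and 2.44 and the second 0.220 and 0.178, so the labelled-knockout array was the lower with both. Ppargc1a was the core gene whose wild-type level was lower in WAT than in liver, 4.34-fold, as 15.6% of all genes were by 2-fold or more, and in the labelled knockout this gap was 1.43-fold. The related coactivators Ppargc1b and Pprc1 had log2 ratios of 0.70 and -0.34 in WAT.

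Prdm16 encodes a transcription factor that sets the brown and beige fate. It read 0.212 in wild-type and 0.234 in labelled-knockout WAT, a log2 ratio of 0.14 that is smaller than its model error of 0.21. Its probe was not well above background in liver, and its WAT level was at least 12.2-fold above liver in wild type. The wider list of regulators was likewise within 2-fold: 0 of 27 measured genes were past it, with a median of 0.19. Irf4 (0.97), a factor through which cAMP raises Ppargc1a and Ucp1, the nuclear receptor Esrrg (0.96), Ppara (0.70) and Cebpb (0.58) had the largest ratios. Irf4 and Esrrg lay just inside the limit.

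**Figure D4:**
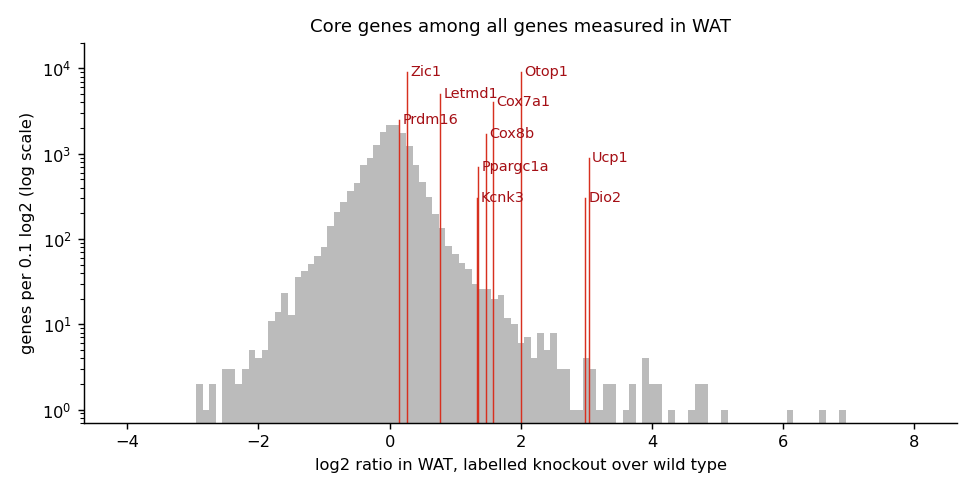
Number of genes per 0.1 step of log2 ratio in WAT (log scale) for all 16130 genes measured, with a red line at each core gene. Ucp1 and Dio2 stand at 3.04 and 2.98 in the far right tail, and Prdm16 and Zic1 at 0.14 and 0.26 within the main body.

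Zic1 encodes a zinc finger transcription factor and is the core gene that marks brown fat. It had 2 probes. The one with signal lies on chr9:91257301-91257360 of mm9 on the minus strand, from base 1864 of the transcript, and is shown because it falls in the zinc finger region, which the Zic genes share:
Zic1 probe: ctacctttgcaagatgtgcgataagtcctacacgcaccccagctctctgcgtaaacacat
This probe read 0.0640 in wild-type liver, 0.0878 in labelled-knockout liver, 0.0755 in wild-type WAT and 0.0904 in labelled-knockout WAT, so the fat arrays were at the level of the liver arrays. Its log2 ratio in WAT was 0.26 with a model error of 0.22. The other probe, from base 3048, was not well above background on any of the 4 arrays. Zic2, Zic4 and Zic5 were not well above background on either WAT array. Signal from other Zic transcripts at the shared region cannot be told apart from Zic1 with this probe.

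Lists of genes known to favour brown, beige or white adipocytes were read beside Zic1. The lists of this report share some genes, so their counts are not independent. Hoxc9 was counted as beige-selective, as white-selective and as a body position gene. Acot11 was counted as brown-selective and among the further thermogenic effectors. Of 15 brown-selective genes, 10 were measured in WAT, with a median of 0.35. Past 2-fold were 3, all upward, against 2.16% of all genes. These were Mpzl2 (2.42), a cell adhesion protein also made by epithelia, the thioesterase Acot11 (2.31) and Oplah, whose log2 level was 1.94 in wild type and 2.94 in the labelled knockout, just past the limit. The count was 2 in place of 3 with either normexp setting, the percentile over detected probes, quantile normalization or cyclic loess. Pdk4 was at 0.65. The 5 not well above background on either WAT array were Lhx8, Epsti1, Myf5, Zic4 and Zic2, which were named after their values were seen. Of 17 beige-selective genes, 14 were measured, 2 were at least 2-fold higher, the fatty acid transporter Slc27a1 (1.53) and the core gene Kcnk3, and the median was 0.10. Cited1 was at 0.86 and Tbx1 at -0.80. Tmem26, a surface marker of beige cells, was not well above background on either array, and Tnfrsf9, another, was at 0.01; both were named after their values were seen.

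Among all genes measured in WAT, 2.01% passed 2-fold downward and 2.16% upward. Of 21 measured white-selective genes, 7 passed 2-fold downward and 0 upward, 14 were within 2-fold and 10 had a ratio above 0. Their median was -0.34 and their summed level was 393 in wild type and 396 in the labelled knockout. That sum was carried mostly by Fabp4 (0.22) and Retn (0.13), which are also on the list of general adipocyte genes. In wild-type WAT these 2 genes had log2 levels of 7.61 and 7.04. The 7 included the natriuretic peptide clearance receptor Npr3 (-2.92), Sncg (-2.69), Nnat (-2.28) and Lep (-1.99), the gene of leptin. Genes of body position, mostly HOX genes, were within 2-fold in 18 of 18 measured cases, with a median of 0.10, led by Hoxa5 (0.61), Hoxc5 (-0.58), Hoxa9 (0.56) and Hoxd4 (-0.46). General adipocyte genes were also within 2-fold in 25 of 25 cases, with a median of 0.28 and a summed level of 1568 in wild type and 1844 in the labelled knockout. Whether the pools differed in beige cells, in brown fat or in both was not tested, and with 1 pool per group the dissection and the genotype cannot be told apart.

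Many other thermogenic effectors were also higher in labelled-knockout WAT. Of 23 measured genes outside the core, 13 passed 2-fold upward, against 2.16% of all genes, and 0 downward, and the median was 1.13. The fatty acid elongase Elovl3 was at 5.05, from a dim wild-type level of -5.18, Cyp2b10 at 2.37, Acot11 at 2.31 and Cpt1b, which brings fatty acids into mitochondria in brown fat and muscle, at 2.10. Of 22 genes of this list measured in liver, 5 passed 2-fold upward and 3 downward, against 2.64% of all genes either way. Cyp2b10 (-1.42) and Acot11 (-1.16) were among those lower in liver. Of 19 genes that carry the adrenergic signal, the adenylyl cyclase Adcy3 (1.43) alone passed 2-fold in WAT, and the median was 0.21. Prkar2b was at 0.80, Pde4d at 0.77 with probes between -0.01 and 1.28, Abhd5 at 0.64 and the beta-3 receptor gene Adrb3 at -0.20. In the list of creatine and calcium cycling, Atp2a1 (2.51) and Ryr1 (2.05), both also fibre markers of muscle, were at least 2-fold higher. Ckmt2, well above background in the labelled knockout alone, was at least 41.3-fold higher, Gamt (-1.06) was lower and Pm20d1 was at 0.66. How much muscle RNA entered the ratios of this list, Ckmt2 included, was not tested. The median of its 11 measured genes was 0.13.

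**Figure D5:**
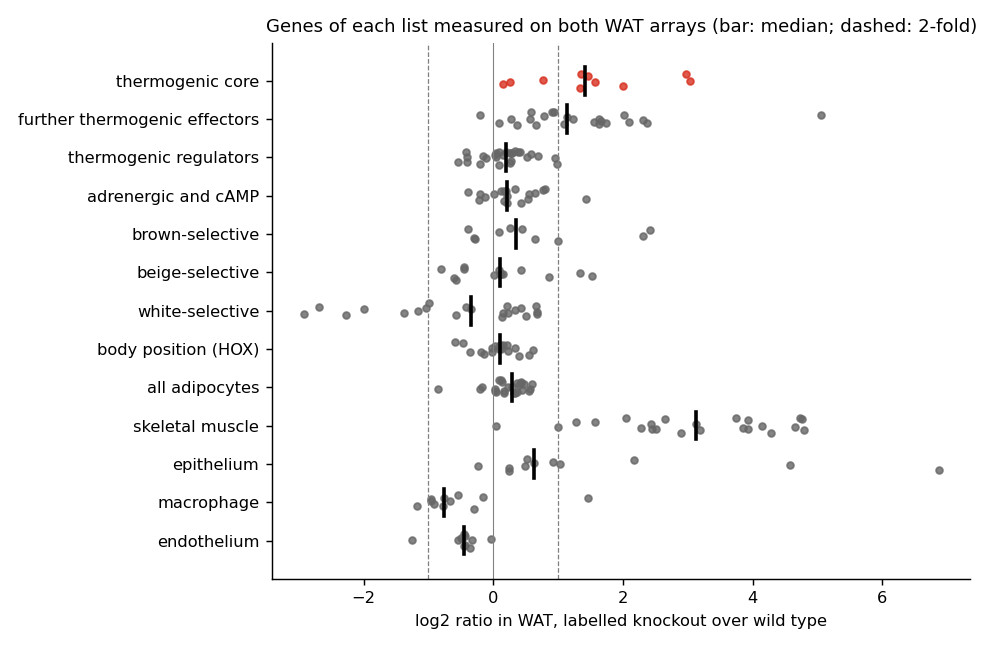
Log2 ratio in WAT of every measured gene of 13 lists, 1 point per gene with a small vertical scatter, black bars at the list medians and dashed lines at 2-fold. Core genes (median 1.41), further effectors (1.13) and skeletal muscle genes (3.13) lie to the right, while the medians of white-selective genes (-0.34) and macrophage genes (-0.77) lie below 0.

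Markers of other cell types were read in the same pools, where 2.16% of all genes measured in WAT passed 2-fold upward and 2.01% downward. Of 15 epithelial markers, 11 were measured and 4 were at least 2-fold higher, Wfdc2 (6.87), Cldn3 (4.58), Krt18 (2.17) and Cldn7 (1.03), and the summed level went from 2.71 to 8.58. The probes of Cldn7 disagreed, at 0.31 and 1.75, and the count was 3 in place of 4 with either normexp setting. Cdh1 was at least 6.81-fold and Epcam at least 2.91-fold higher. Of 11 macrophage markers, Cd14 (1.46) passed 2-fold upward and Lyz2 (-1.18) downward, with a median of -0.77 and summed levels of 8.70 and 6.13. Of 10 endothelial markers, Vwf (-1.26, with probes at -1.79 and -0.73) alone passed 2-fold, and the median was -0.45. With either normexp setting 0 of the 10 passed it. Smooth muscle and pericyte markers (median -0.36, Notch3 at -0.71) had 0 of 10 past 2-fold, and fibroblast markers (median -0.29, Dlk1 at 0.88) 0 of 12. Hepatocyte markers had a median of -0.94, with 10 of 20 at least 2-fold lower, led by Fgg (-1.63) and Ttr (-1.62). Their summed level, 236 in wild type and 283 in the labelled knockout, was carried by a few genes with high WAT levels, Trf (0.28), Rbp4 (-0.21) and Cyp2e1 (0.97). Lymphoid markers (median -0.08, Cxcr5 at 0.96), nerve and Schwann cell markers (12 measured, Ngfr at -0.90) and red cell markers (-0.47 over 3 measured genes, Slc4a1 at -0.75) had 0 genes past 2-fold. Th, the rate-limiting enzyme of noradrenaline synthesis, was at 0.44. The part of these cell types in the ratios of the core genes was not tested.

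Liver served as a background level. Of the 10 core genes, 7 were measured on both liver arrays and 0 differed by 2-fold, against 2.64% of 15567 genes. Their median log2 ratio was 0.04, from -0.26 for Ppargc1a to 0.56 for Otop1, whose ratio, like that of Zic1 (0.46), changed sign with normexp background correction (-0.81 and -0.28). Ucp1, Dio2 and Prdm16 were not well above background on either liver array. Between the wild-type arrays, 7 core genes were at least 2-fold higher in WAT than in liver, 3 of them by a lower bound, compared with 20.4% of all genes when bounds were counted. They were Ucp1, Dio2, Prdm16, Otop1, Cox7a1, Cox8b and Kcnk3. Cox8b was 833-fold higher, from a dim liver level. Between the labelled-knockout arrays Letmd1 joined them at 2.60-fold, making 8, against 19.9% of all genes. The comparisons between tissues share their arrays with those between genotypes.

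The pattern over the 4 arrays most like that of Ucp1 was sought among 16128 other genes measured in WAT, by the distance between the log2 levels after each gene's mean was taken off. The nearest was Slc36a2, an amino acid transporter of brown and beige fat, at a distance of 1.75, followed by the core gene Cox8b at 1.82, Cldn22 at 2.14, the lipid droplet protein gene Plin1 at 2.17 and the amino acid transporter Slc7a10 at 2.17. The liver levels of Ucp1, and those of Slc36a2, Cldn22 and Slc7a10, were not well above background on either array. Plin1 was well above background in wild-type liver alone. The distances and their order thus rest in part on background signal. The 5 nearest genes share with Ucp1 mainly the gap between fat and liver. Their log2 ratios in WAT were 0.58, 1.47, 0.34, 0.17 and -0.03. The core genes other than Cox8b lay farther off, from rank 79 for Dio2 to rank 14391 for Ppargc1a.

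Promoter sequences were read for 9 of the 10 core genes from RefSeq on GRCm38.p6, as 250 bases before to 50 bases after the transcript start. Kcnk3 was not matched. The promoters of Ucp1, Dio2 and Ppargc1a are shown because they hold the letters TGACG, the core of the site bound by cAMP-responsive factors, and because all 3 genes were at least 2-fold higher in labelled-knockout WAT. Capitals mark TGACG on either strand, the full palindrome TGACGTCA, which contains it on both strands, AGGTCA, the single site of nuclear receptors, on either strand, and TATAAA on the gene's strand. Ucp1 lies at chr8:83290098-83290397 on the plus strand, Dio2 at chr12:90738989-90739288 on the minus strand and Ppargc1a at chr5:51567676-51567975 on the minus strand:
Ucp1 promoter: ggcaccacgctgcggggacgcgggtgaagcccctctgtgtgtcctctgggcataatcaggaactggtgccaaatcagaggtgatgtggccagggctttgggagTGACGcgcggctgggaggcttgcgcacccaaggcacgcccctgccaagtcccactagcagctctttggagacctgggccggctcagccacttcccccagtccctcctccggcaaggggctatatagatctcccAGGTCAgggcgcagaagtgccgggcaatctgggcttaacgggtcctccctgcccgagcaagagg
Dio2 promoter: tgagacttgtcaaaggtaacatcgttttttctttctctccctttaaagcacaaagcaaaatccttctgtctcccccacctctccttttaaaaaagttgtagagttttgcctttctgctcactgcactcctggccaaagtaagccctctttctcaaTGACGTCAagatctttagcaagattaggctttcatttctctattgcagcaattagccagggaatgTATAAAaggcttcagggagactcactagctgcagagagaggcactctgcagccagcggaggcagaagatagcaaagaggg
Ppargc1a promoter: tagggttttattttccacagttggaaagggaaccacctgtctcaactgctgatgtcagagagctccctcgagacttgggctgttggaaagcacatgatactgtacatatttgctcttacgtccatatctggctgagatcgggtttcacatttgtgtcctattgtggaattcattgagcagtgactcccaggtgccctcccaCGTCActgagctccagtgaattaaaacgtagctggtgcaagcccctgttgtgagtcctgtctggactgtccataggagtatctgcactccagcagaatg
TGACG was found in these 3 of 9 core promoters and in 20.8% of 32851 promoters of the same length. The full TGACGTCA was found in Dio2 alone among the core promoters, at -95 from the start, and in 1.79% of all promoters. AGGTCA was found in Ucp1, at -14, and in Letmd1, and in 16.3% of all. TATAAA was found in Dio2, at -30, and in Cox8b, and in 8.32% of all. The direct repeat of AGGTCA with 1 base between was in 0 of the 9 and in 0.0396% of all. The known enhancer of Ucp1 lies farther upstream than this window. A match describes letters and shows no binding.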

How the data were processed

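The deposited scanner files hold Cy3 intensities from Agilent Feature Extraction 11.0.1.1 (per the file headers), background-corrected within each array and not normalized between arrays. The deposited value table holds this signal divided by 1 constant per array, as its values show. The flags for well above background and saturation were taken as other values of the deposited files.

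From each log2 processed signal the 75th percentile of that array (controls left out) was subtracted, outlier spots were dropped, and a gene's ratio was the mean over probes well above background on both arrays. A gene well above background on 1 array got a lower bound, set against the lowest such signal of the dim array or, where higher, the dim probe's own signal. Symbols came from RefSeq (GRCm38.p6) by accession (27228 probes), symbol (3581) or synonym (565), and 8055 probes kept the file's name and were not counted as genes. Positions are on mm9 unless given otherwise. With 1 array per group there was no test, and 2-fold was the limit for counting. Named genes were all core probes and family relatives, up to 4 members per list with the largest ratios and up to 3 bounds, and the 5 genes nearest to Ucp1; a few more (Adrb3, Th, Nppa, Myh6) were named for their role after their values were seen. Effectors past 2-fold in liver were also named after their values were seen. Members and lists were chosen with earlier results of these data known. Alternatives numbered 9, with limma 3.58.1 for normexp, quantile and loess. The steps were tested on simulated data. Other values used Python 3.11.15.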

Additional observations from a re-analysis of the deposited data

Results flagged for a closer look

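Ppargc1a, Cox8b and Kcnk3 had a ratio above 0 in WAT and below 0 in liver. The log2 ratio in WAT exceeded that in liver by 1.60 for Ppargc1a, 1.67 for Cox8b and 1.46 for Kcnk3. This difference between tissues was not tested, and the liver ratios of Cox8b (-0.20, model error 0.38) and Kcnk3 (-0.13, model error 0.28) were smaller than their errors. So was that of the first Ppargc1a probe (-0.199, model error 0.204), while the second was at -0.311 with a model error of 0.208.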

How the results depend on the processing

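Under all 9 alternatives 7 core genes were at least 2-fold higher in WAT and 0 lower, and the median log2 ratio lay between 1.33 and 1.41. Ucp1 ranged from 2.86 to 3.04, Dio2 from 2.71 to 2.99, Otop1 from 1.70 to 2.51, Ppargc1a from 1.08 to 1.38, Letmd1 from 0.69 to 0.82, Zic1 from 0.24 to 0.39 and Prdm16 from 0.12 to 0.18. Over all genes, 674 were past 2-fold, 379 with normexp and an offset of 50, and 1416 with no filter on dim probes. In liver the count of core genes past 2-fold was 0, and 1 with normexp without offset (Cox8b, -1.31) and 1 with no filter (Dio2, not well above background). With normexp and no offset, liver Kcnk3 was at -0.98, Otop1 at -0.81 and Zic1 at -0.28; with the offset of 50, Otop1 was at -0.61 and Zic1 at -0.25, so the signs for Otop1 and Zic1 in liver turned. The number of core genes 2-fold higher in wild-type WAT than in wild-type liver was 5 with normexp and an offset of 50 and 6 without offset, against 7. With cyclic loess or the brightest probe, 1 regulator was past 2-fold in place of 0. A level above the 25th percentile removed 0 genes. No paired analysis was possible because each group had 1 array. Signal near background limits the liver values.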
